A study of Mus musculus with 8 samples.

Results

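The cytosolic chaperonin CCT, also called TRiC, was followed through its 8 core subunit genes, Tcp1, Cct2, Cct3, Cct4, Cct5, Cct6a, Cct7 and Cct8, in single mouse heart cells. The genes were chosen by name: a probe was taken when its gene name in the array design equalled 1 of these 8 symbols. Each gene had 1 probe, so 8 of the 55681 probes on each array were read, and the 8 genes stood among 23373 named genes. The arrays held amplified cDNA from 8 single cells, labelled as myocardium, from embryos at embryonic day (E) 8.5 with 9 somites. The study's methods give the ventricle of the heart as their source. WT cells 1 to 4 came from embryos of genotype Mesp1+/+ with Sox17 flox/flox. KO cells 1 to 4 came from embryos of genotype Mesp1 Cre/+ with Sox17 flox/flox. Both groups thus carried the floxed Sox17 alleles, and they differed in the Mesp1 Cre allele, in which Cre stands under Mesp1, a gene active in early mesoderm, so that Sox17 is meant to be lost across the mesoderm and not in the myocardium alone. The embryo of origin was not named for any cell. Each genotype was therefore 1 sample of cells, no test was made, and the SD over 4 cells given below is the spread between cells.

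CCT is built of a pair of stacked rings, each with 1 copy of each of the 8 subunits, which enclose a protein chain and fold it in a cycle driven by ATP. Its best known substrates are actins and tubulins, and it also folds many proteins with WD repeats. Prefoldin hands over unfolded actin and tubulin to it, and phosducin-like proteins work beside it as partners. In the heart, the actins of the sarcomere are among the proteins that depend on CCT for folding.

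The labels, the cells and the arrays were checked first. All 11 myocardial markers, among them Actc1, Tnnt2 and Nkx2-5, were detected in each of the 8 cells. A WT cell held 3 to 4 of the 9 endothelial markers and a KO cell 2 to 4. The log2 of the summed signal of these markers lay at 9.85 to 10.09 for WT and at 9.73 to 11.85 for KO. Every cell had Kdr and Plvap, and none had Cdh5, Tek, Emcn or Nfatc1. The other endothelial markers, Pecam1, Tie1 and Etv2, were each detected in some cells but not in all. The 5 erythroid markers were detected in no cell, and at most 1 of 6 endoderm markers was detected in any cell. Sox17 and Mesp1 themselves were detected in 0 of 8 cells, so neither gene could check the genotype labels. The share of probes well above background was 19.6% to 26.0% over the WT cells, 17.1% to 24.3% over the KO cells. The WT arrays shared 1 slide and the KO arrays a second, so that slide and genotype cannot be told apart in any difference given here.

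The probes that carry the results are printed so that it is plain which stretch of each transcript was read. They are the 60-base probes, 5′ to 3′ as in the array design, of the subunit that was well above background in WT cells only and of the 3 subunits with 1 very low cell each.

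Cct6a: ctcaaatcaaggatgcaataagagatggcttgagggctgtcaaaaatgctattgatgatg

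Cct2: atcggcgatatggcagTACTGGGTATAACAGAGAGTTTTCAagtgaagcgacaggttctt

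Cct3: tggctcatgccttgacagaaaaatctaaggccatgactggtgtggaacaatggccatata

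Cct8: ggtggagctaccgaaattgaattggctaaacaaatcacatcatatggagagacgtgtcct

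The files place the Cct6a probe at chr5:130300316-130300375 on the plus strand, the Cct2 probe at chr10:116490137-116490196 on the minus strand and the Cct3 probe at chr3:88124479-88124538 on the plus strand, all in mouse build mm9. The Cct8 probe has no position in the files, and whether a probe lies in an exon or an intron was not looked up here. Each of the 4 probes holds at least 1 reading frame without a stop codon. The capitals in the Cct2 probe mark 25 bases that it shares with another probe of the array, which carries no gene symbol and lies elsewhere on the same chromosome (chr10:103356262-103356321). That other probe read 50 to 597.6 units and was detected in 7 of 8 cells. For the 7 other subunits the longest run shared with any other probe was 13 to 15 bases. The GC content of the 8 subunit probes was 38.3% to 51.7%.

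All 8 subunits were detected in every WT cell, and 6 of the 8 were detected in every KO cell. Detected means that the scanner software called the signal well above background. Counted over readings, all 32 of the WT cells were detected and 27 of the 32 of the KO cells. The detected share per cell was 100% in each WT cell. It was 75% in KO cell 1 and 87.5% in each of KO cells 2, 3 and 4, a mean of 84.4% ± 6.25 (SD between cells, n = 4) a difference of -15.62 percentage points from the WT cells. The 5 missing readings were those of Cct6a in all 4 KO cells and that of Cct3 in KO cell 1. Under the software's looser call, a positive and significant signal, Cct6a was also detected in KO cells 1 and 2, so its absence from all KO cells held for the stricter call only. Of the 6886 probes of the whole array that were detected in all 4 WT cells, 77.0% were also detected in all 4 KO cells and 0.857% in none.

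**Figure D1:**
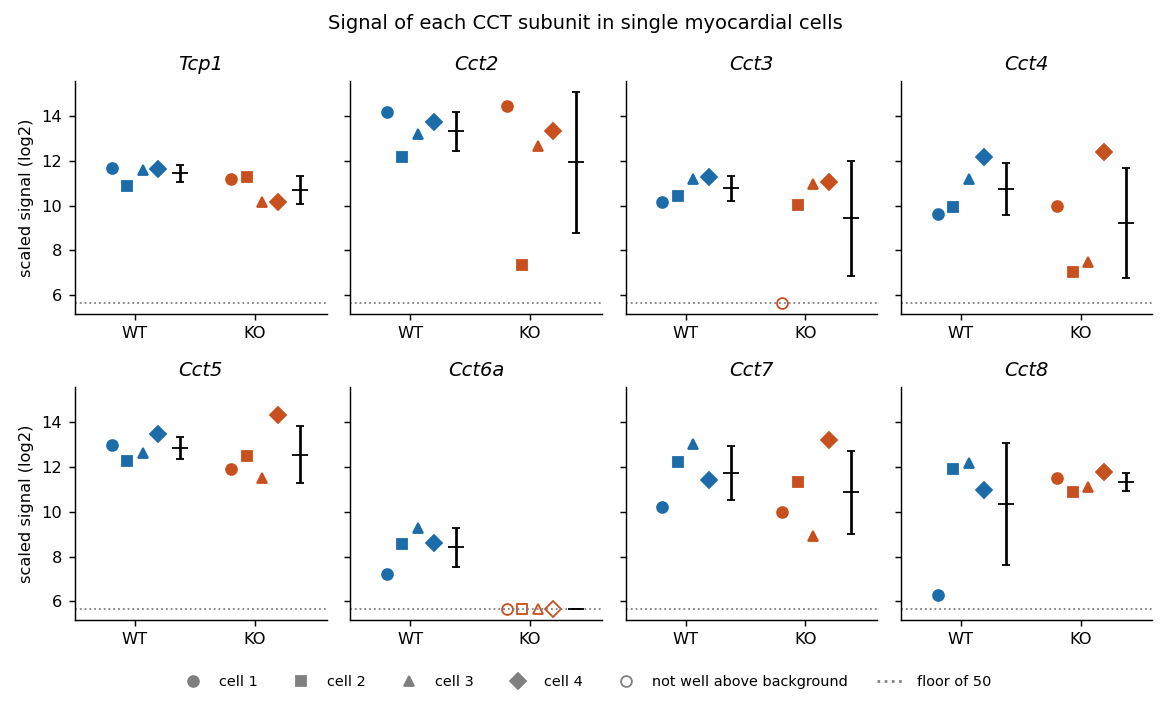
Scaled signal on the log2 scale (vertical axis) of each CCT subunit in 4 WT and 4 KO single cells, with marker shapes for cells 1 to 4, open markers for readings not well above background, and the mean ± SD over 4 cells beside each group. The groups of Cct6a are apart, with all 4 KO cells at the floor of 50, and those of the other 7 subunits overlap.

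Cct6a encodes the zeta subunit of the ring. Its scaled signal was 149.0, 377.3, 626.2 and 384.2 in WT cells 1 to 4 and stood at the floor of 50 in all 4 KO cells. Signals are the scanner's background-corrected intensities, scaled to a common median over arrays, and values under 50 were set to 50. Before scaling, the KO readings were 6.0, 3.6, 2.3 and 2.0 units and the WT readings 127.5, 349.1, 1018.3 and 442.2. Every WT cell lay above every KO cell, with log2 means of 8.41 ± 0.87 and 5.64 ± 0 (SD, n = 4 each). Cct6a was at least 6.82-fold lower in KO cells, a lower bound because no KO cell gave a signal well above background. The share of all probes well above background was 24.3%, 17.2%, 17.1% and 20.1% in KO cells 1 to 4, next to 19.6%, 21.4%, 26.0% and 24.1% in WT cells 1 to 4, and its part in the Cct6a result was not tested. The difference was -2.77 on the log2 scale and lay between -3.17 and -2.48 when 1 cell was left out at a time. Under quantile normalization it was -2.27, which is short of the 5-fold line.

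A factor of 5, the size stated with the study's results, was taken here between group means, which is 2.32 on the log2 scale. It was applied to the 7467 probes that every cell of 1 or both genotypes detected, among which were all 8 subunit probes. Cct6a alone passed in the lower direction, 1 of 8 subunits, where 6.88% of the 7467 probes passed. In the higher direction 0 of 8 subunits passed, beside 1.75% of the probes. The highest KO cell was under the lowest WT cell for 1 subunit, again Cct6a, and for 2.26% of the probes. The reverse held for 0 subunits and 3.27% of the probes. Detection in all WT cells and in no KO cell was seen for 1 subunit and for 0.79% of the probes. With 8 subunits, 1 gene is 12.5% of the family, so these shares describe Cct6a and not the family.

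Tcp1 encodes the alpha subunit, the first of the family to be named. It read 3240.8, 1863.9, 3127.4 and 3168.9 units in WT cells 1 to 4 and 2351.5, 2489.4, 1163.6 and 1148.8 units in KO cells 1 to 4. KO cells 1 and 2 lay between WT cell 2 and the other WT cells, and KO cells 3 and 4 lay below all WT cells. The log2 means were 11.44 ± 0.39 and 10.71 ± 0.62 (SD, n = 4 each), a difference of -0.73. This was the subunit with the narrowest spread, 2.82-fold between the lowest and the highest of the 8 cells, and its difference stayed between -0.93 and -0.55 when any 1 cell was left out.

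Cct2, the beta subunit, had 1 very low cell among the KO cells. Its signal was 18916.6, 4563.5, 9358.9 and 13493.5 units in WT cells 1 to 4, and 22155.2, 162.0, 6537.2 and 10265.1 units in KO cells 1 to 4. KO cell 2 stood 137-fold below KO cell 1, the highest cell of all, while the other 3 KO cells lay within or above the WT range. The difference of the means, -1.37 on the log2 scale (13.32 ± 0.88 in WT and 11.94 ± 3.15 in KO cells), therefore turned to 0.16 without KO cell 2, and the difference of the medians was -0.46. The probe that shares 25 bases with that of Cct2 was at the floor in KO cell 2, and also in WT cell 2, where Cct2 read 4563.5 units.

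Cct3, the gamma subunit, showed the same form with another cell. It read 1163.2, 1369.6, 2328.7 and 2497.3 units in WT cells 1 to 4, and 1055.8, 1999.3 and 2148.8 units in KO cells 2 to 4. KO cell 1 was at the floor and not well above background, with 2.0 units before scaling. The other 3 KO cells lay within or just under the WT range. The difference was -1.34 on the log2 scale (10.77 ± 0.55 and 9.43 ± 2.57, SD, n = 4 each), but -0.08 without KO cell 1 and -0.30 between medians.

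Cct8, the theta subunit, had its very low cell among the WT cells. The signal was 78.9 units in WT cell 1 and 3850.9, 4713.2 and 2020.7 units in WT cells 2 to 4, against 2927.0, 1885.8, 2223.8 and 3511.5 units in KO cells 1 to 4. It was the 1 subunit with a higher mean in KO cells, by 0.97 on the log2 scale (10.35 ± 2.75 and 11.32 ± 0.40). That direction turned without WT cell 1, to -0.37, and the difference of the medians was -0.13. The 4 KO cells agreed within 1.86-fold, the closest set of KO readings among the subunits above the floor.

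Cct4, Cct5 and Cct7, the delta, epsilon and eta subunits, shared 1 high cell, KO cell 4. Cct4 read 784.3, 994.8, 2332.0 and 4566.9 units in WT cells 1 to 4, and 1005.2, 131.3, 181.3 and 5347.9 units in KO cells 1 to 4. KO cells 2 and 3 were below every WT cell and KO cell 4 above every WT cell. The difference was -1.51 on the log2 scale (10.73 ± 1.17 and 9.22 ± 2.47), -1.83 between medians, and -2.56 without KO cell 4, which is past 5-fold.

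Cct5 read 8232.4, 4953.5, 6425.1 and 11272.9 units in WT cells 1 to 4, and 3831.3, 5747.3, 2894.7 and 20799.5 units in KO cells 1 to 4. Its difference, -0.29 (12.85 ± 0.51 and 12.56 ± 1.26), was the smallest of the 8 in size and was 0.06 without KO cell 3. Cct7 read 1187.8, 4806.7, 8415.6 and 2752.6 units in WT cells 1 to 4, and 1027.6, 2583.5, 483.8 and 9472.0 units in KO cells 1 to 4. For both genes KO cell 3 was the lowest and KO cell 4 the highest of the 8 cells, and the WT cells lay between them. The difference of Cct7 was -0.86 (11.73 ± 1.20 and 10.87 ± 1.85), or -0.21 without KO cell 3 and -1.64 without KO cell 4.

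**Figure D2:**
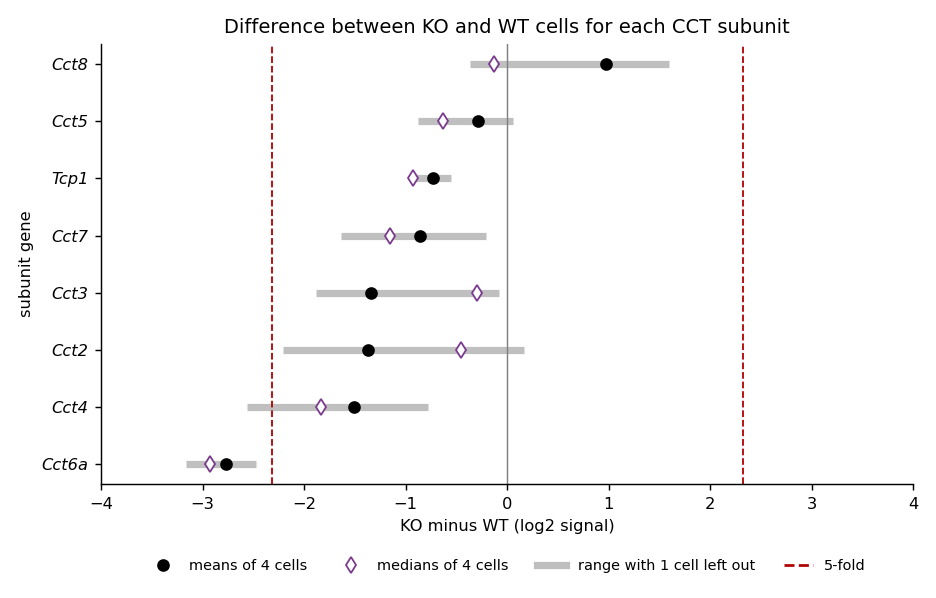
Difference of KO minus WT cells on the log2 scale (horizontal axis) for each CCT subunit, as the difference of means over 4 cells (black), the difference of medians (open diamonds) and the range of the difference of means when 1 of the 8 cells is left out (grey bars), with dashed lines at 5-fold. Cct6a lies past the lower line over its whole range, and the bars of Cct2, Cct5 and Cct8 cross 0.

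Over the family, 7 of 8 subunits had a lower mean in KO cells and 1 a higher one, with a median difference of -1.10 on the log2 scale. Of the 8, 4 were past 2-fold lower (Cct2, Cct3, Cct4 and Cct6a) and 0 past 2-fold higher. The same was taken for the 2085 genes that, like these 8, were above the floor in all 4 cells of at least 1 genotype. Their median difference was 0.06, 48.0% of them were lower in KO cells and 26.9% were past 2-fold lower. The median over the family kept its sign when each cell was left out in turn, between -1.74 without KO cell 4 and -0.74 without KO cell 1. The spread between cells was larger in KO cells for Tcp1, Cct2, Cct3, Cct4, Cct5 and Cct7 and smaller for Cct8. The SDs of Cct2 and Cct3 in KO cells rest largely on 1 very low cell each. That of Cct6a in KO cells was 0 because all 4 lay at the floor. How many of the 2085 genes had a larger spread in KO cells was not counted. The median SD of the subunits was 0.87 in WT and 1.55 in KO cells, beside 1.07 and 1.10 for those 2085 genes.

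Read by cell, the subunits did not fall together. The mean deviation of the 8 subunits from their own means was, on the log2 scale, -0.40, 0.34, 1.09 and 0.95 for WT cells 1 to 4. It was -0.67, -1.20, -0.89 and 0.78 for KO cells 1 to 4. The groups overlapped: KO cell 4 lay above WT cells 1 and 2, and WT cell 1 lay with the low KO cells. KO cells 2 and 3, the lowest, also had the smallest shares of probes well above background, 17.2% and 17.1%, and the part of this in the result was not tested. With Cct3 and Cct6a set aside, KO cell 1 moved to 0.09, while KO cells 2 and 3 stayed at -1.36 and -1.10. The difference between the genotypes over these 6 subunits was -0.63.

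Cct6a was at the floor in every KO cell. The very low readings of the other subunits were spread over several cells. KO cell 2 was low for Cct2 and Cct4 and within 0.21 of the mean for Tcp1, Cct3, Cct5, Cct7 and Cct8. KO cell 1 had neither Cct3 nor Cct6a well above background and held the highest Cct2 reading of all. KO cell 4 had the highest Cct4, Cct5 and Cct7 and the lowest Tcp1. WT cell 4 was above the mean for all 8 subunits.

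**Figure D3:**
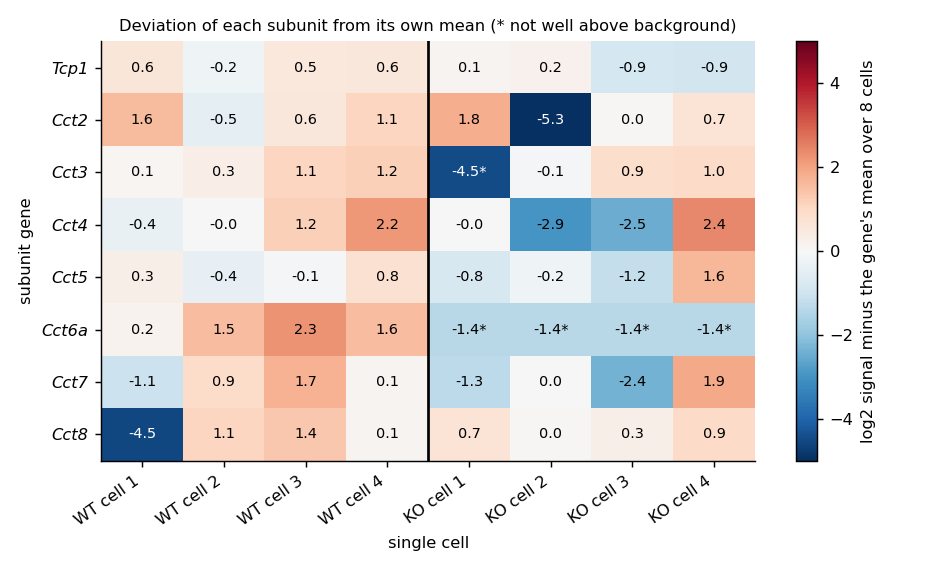
Log2 signal of each CCT subunit (vertical axis) in each single cell (horizontal axis) minus the mean of that gene over the 8 cells, with an asterisk on readings not well above background and a black line between the genotypes. The lowest readings, of Cct2 in KO cell 2, Cct3 in KO cell 1 and Cct8 in WT cell 1, lie in different cells.

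Across the 8 cells, the 6 subunits detected everywhere were only loosely related. Over their 15 pairs, Pearson's r across the 8 cells ranged from -0.38 (Tcp1 and Cct8) to 0.73 (Cct4 and Cct5), with a median of 0.12, and 11 pairs were positive. The closest pairs were those among Cct4, Cct5 and Cct7, with r of 0.63 to 0.73, genes for which KO cell 4 was the highest cell, and Cct2 and Cct4 followed at 0.63. All pairs of the 4985 probes that were detected in all 8 cells and were not at the floor in every cell had a median r of 0.10. These are descriptions over 8 cells that share a slide within each genotype, with no p.

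The genes whose pattern over the 8 cells was most like the mean of these 6 subunits, among 2137 other genes detected in all 8 cells and not at the floor throughout, were Pafah1b3 (r = 0.94), Eef1a1 (r = 0.91), Chd4 (r = 0.89), Gm6548 (r = 0.89) and Cul7 (r = 0.88). Pafah1b3 encodes a catalytic subunit of platelet-activating factor acetylhydrolase, Eef1a1 the elongation factor that brings aminoacyl-tRNA to the ribosome, Chd4 a chromatin remodeller and Cul7 a scaffold of ubiquitin ligases. The log2 means of Gm6548, 14.99 in WT and 14.65 in KO cells, lay close to those of Eef1a1, 14.97 and 14.57. Whether both probes read the same transcripts was not tested. The differences of KO minus WT were negative for all the genes named, from -1.72 for Chd4 to -0.34 for Gm6548 on the log2 scale. These genes were chosen for following the mean of the 6 subunits, which itself differed by -0.63. The shared sign therefore follows largely from the choice and is no separate result. The r values are likewise raised by the choice, being the highest of 2137 over only 8 cells. How high they would be by chance was not tested.

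The genes that work with CCT were read from lists, each gene by its brightest probe. Among the 6 prefoldin genes 2 were detected throughout at least 1 genotype, Pfdn5 with a difference of 0.34 and Pfdn6 with -1.93, the second named after its value was seen. The design places the Pfdn5 probe on chromosome X, and whether it also reads a related copy was not tested. Of the 4 phosducin-like and related partner genes (Pdcl, Pdcl2, Pdcl3 and Txndc9), 0 were so detected. Thus the hand-over and partner genes gave few readings beside the 8 of the subunits.

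Of the 7 actin genes and actin-related genes, 5 were so detected and 0 passed 5-fold, with a median difference of -0.22. Actg1, a cytoplasmic actin, differed by -1.13 by its brightest probe, and its 4 other probes by -1.68 to -0.15. Acta1, skeletal actin, differed by 0.36. Actr2, an actin-related gene detected in 4 WT and 2 KO cells, differed by -2.12 and is named after its value was seen. Of the 5 genes, 3 were lower and 2 higher in KO cells. Actg1 probes lie on several chromosomes by the files, so signal of related copies cannot be told apart.

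Of the 11 tubulin genes, 6 were so detected, 5 lower and 1 higher in KO cells with a median of -0.59, and Tubb4b, a beta tubulin, passed 5-fold. Its signal was 17090.4, 7126.8, 5987.8 and 17568.4 units in WT cells 1 to 4 and 295.3, 3947.9, 50 and 4268.1 units in KO cells 1 to 4. Even the lowest WT cell thus exceeded the highest KO cell, with a difference of -3.91. The design places that probe on chr1:24600890-24600949 in mm9, and whether it also reads a related copy was not tested.

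The tubulin cofactors, which take folded tubulin on from CCT to build the alpha and beta dimer, went in both directions. Tbcb, cofactor B, read 1608.7, 528.8, 2278.7 and 497.3 units in WT cells 1 to 4, was detected in no KO cell, and was at least 19.8-fold lower there. It thus had the same detection pattern as Cct6a. Tbca, cofactor A, was higher in KO cells by 3.86 and 2.88 on its 2 probes. Its brighter probe read 50, 1089.5, 2467.6 and 50 units in WT cells 1 to 4, and 13045.5, 1289.7, 6092.8 and 2879.2 units in KO cells 1 to 4. Of 13 WD-repeat and other substrates, 4 were so detected, 3 lower and 1 higher in KO cells. Their median difference was -1.39, beside -1.10 for the 8 subunits, so a shift of that size was not particular to the subunits. Among them Gnb1, a G protein beta subunit, passed 5-fold by its brighter probe (-2.89). Its other probe, detected in 1 cell of each genotype, differed by 0.00.

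Among other chaperonins, Cct6b, the testis form of the zeta subunit, was detected in 0 of 8 cells, as were Cct8l1 and Mkks. Cct6b thus gave no signal well above background in the KO cells, where Cct6a had none either by that call. By the looser call, a positive and significant signal, Cct6a was detected in KO cells 1 and 2. Bbs10, named after its values were seen, was detected by its dimmer probe in 4 WT and 0 KO cells. Its brighter probe was detected in 2 WT and 0 KO cells. The mitochondrial chaperonin was detected in all 8 cells, with a difference of -0.65 for Hspd1, the ring subunit, and of -0.97 for Hspe1, its lid. The other Hspe1 probes differed by -0.79 and -0.54. The design places the Hspe1 probes on chromosomes 1, 5 and 18 and the Hspd1 probe on chromosome 12. Whether they also read related copies was not tested.

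**Figure D4:**
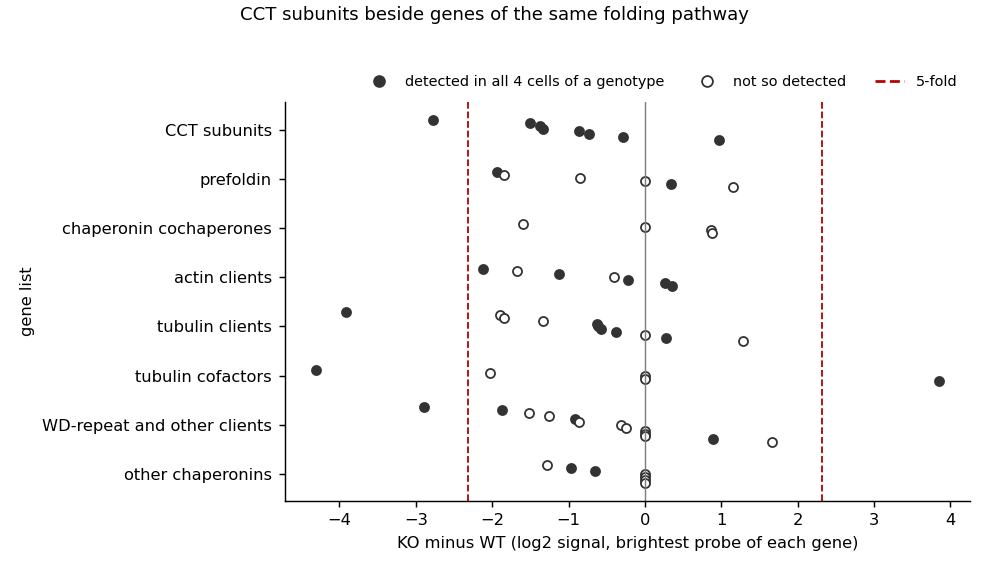
Difference of KO minus WT cells on the log2 scale (horizontal axis) of the 8 CCT subunits and of the genes of 7 related lists, 1 point per gene by its brightest probe, filled where all 4 cells of a genotype were detected, with dashed lines at 5-fold. Filled points past 5-fold are Cct6a, Tubb4b, Tbcb and Gnb1 on the lower side and Tbca on the higher side.

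The start regions of the subunit genes were compared by their letters. RefSeq promoter windows on GRCm38.p6, from 250 bases before to 50 bases after each start, were found for 7 of the 8 genes, in 9 windows, and Cct4 had none in the table used here. GGGCGG, the core letters of the GC box, stood on either strand in 8 of the 9 windows and in at least 1 window of each of the 7 genes, beside 35.7% of all 32851 windows. CCAAT stood in 4 of the 9, those of Cct3, Cct6a, Cct7 and Tcp1, beside 37.4%. TATAAA stood in 0 of 9, beside 13.6%. GAANNTTC, a part of the heat shock element, stood in that of Cct2, beside 7.86%. The motifs were searched independently of each other on both strands. Cct6a differed from the other subunits in none of these motifs taken alone, since GGGCGG and CCAAT also stood in windows of subunits detected in all 8 cells.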

How the data were processed

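The authors amplified the cDNA of each single cell, transcribed it in vitro, labelled it with Cy3 and hybridised it to Agilent arrays. Transcripts lost before amplification give low readings, and such losses were not measured here. The deposited files hold intensity values, on a linear scale, from the scanner software Feature Extraction, whose headers give version 12.0.2.2. The processed signal, corrected for background by that software, was used. The authors' methods floor values at 50 and scale to the 50th percentile.

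Control and outlier spots (146 to 220 per array) were left out, and 0 spots were saturated. The log2 intensity of the spots of a probe was averaged from the deposited values. Arrays were scaled on the 50th percentile of the 5301 probes well above background in all 8 cells, by -0.76 to 0.68 on the log2 scale, and then floored at 50. Positions are those of the files (mm9). Python (3.11.15), pandas (2.3.3), numpy (2.4.6), R (4.3.3) and limma (3.58.1, for normexp) were used. Quantile normalization was done in Python.

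A lower-bound fold set the mean of the detected genotype against, on each array, the floored reading or the dimmest detected probe, whichever was higher. All subunits are named. From each list the genes past 5-fold are named, otherwise the 2 with the largest difference among those detected in all 8 cells, and the 5 genes most like the subunits. Members and lists were chosen with earlier results of these data known. Alternatives covered scaling, background, floor, averages, detection, dim probes, fold and cells left out.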

Additional observations from a re-analysis of the deposited data

Results flagged for a closer look

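Tcp1 in WT cell 2 stood apart from the other WT cells. It read 1863.9 units, whereas WT cells 1, 3 and 4 read 3240.8, 3127.4 and 3168.9 units, and its gap to the nearest of them was 0.936 of the range of the 4 cells on the log2 scale, above Dixon's critical value for 4 values. Of the 17 groups of 4 cells examined in this way (Cct6a in KO cells, all at the floor, has no range), this was the 1 that passed the limit. By chance about 1 in 20 such groups passes, so 1 of 17 is near what chance gives. The 17 include the mean of the 8 subunits in each genotype, which is not independent of the subunits. The ratio is high because the other WT cells lay close together, at 11.61 to 11.66 on the log2 scale, beside 10.86 in WT cell 2. Without this cell, the Tcp1 difference of KO minus WT was -0.93 in place of -0.73.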

How the results depend on the processing

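The number of subunits at least 5-fold lower in KO cells was 1, Cct6a. It was 0 under quantile normalization and 0 when a probe had to be detected in all 8 cells, which leaves Cct6a out by construction. It was 2 without the floor (Cct3 and Cct6a), 4 with a 2-fold rule, and from 1 to 2 when 1 cell was left out, 2 being without KO cell 4 (Cct4 and Cct6a). The number at least 5-fold higher was 0 in every setting run. The median difference of the subunits, -1.10, kept its sign, from -1.74 to -0.74 over the cells left out and from -1.47 to -0.78 over the other settings. The scalings and the other signal settings moved the median of the probes detected in all 8 cells between 0 and 0.34 (0.15 as reported), and the difference of the subunits from it was -1.25 to -1.47. The detected share per cell was lower in KO cells by -15.62 percentage points, -9.38 when detection meant a positive and significant signal, which Cct6a had in KO cells 1 and 2, and -16.67 to -12.5 with cells left out. Without the floor the Cct6a difference was -6.62, since KO readings then fell to the level of the background. The signs of Cct2 (0.16 without KO cell 2), Cct5 (0.06 without KO cell 3) and Cct8 (-0.37 without WT cell 1, -0.13 by medians) turned. The cause of these changes was not tested beyond what each setting leaves out. As each gene had 1 probe, averaging over probes changed nothing. No paired analysis was possible because no embryo or litter is named that would join a WT cell to a KO cell. The number of arrays and readings near background limit the precision.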
